A study of Mus musculus with 4 samples.

Results

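A set of 8 neuropeptide precursor genes were followed across the 4 libraries of a mouse stroke series: somatostatin (Sst), neuropeptide Y (Npy), vasoactive intestinal peptide (Vip), cholecystokinin (Cck), prodynorphin (Pdyn), corticotropin-releasing hormone (Crh), cortistatin (Cort) and Adcyap1, which encodes the peptide PACAP. They were taken by symbol, and all 8 were among the 46983 genes counted in every library. RNA of single nuclei was captured in droplets and sequenced, where each captured transcript carries a unique molecular identifier (UMI), so that UMIs count molecules and not amplified copies. Male C57Black/6 mice of 3 months either served as the sham control or had the middle cerebral artery permanently closed by coagulation and transection, and were collected at day 1, day 3 or day 7. For each group 3 forebrain hemispheres were pooled into 1 library, so no spread between animals can be given and no test between groups was made. Values in a row are in the order sham control, day 1, day 3 and day 7 unless stated. Levels are UMIs of a gene per 1000000 UMIs of the nuclei summed (CPM). Every interval below is a 95% interval that covers counting error only. The labels describe the control both as sham control and as intact cortical tissue, while the other groups are injured forebrain hemispheres, so surgery, tissue taken and library cannot be told apart.

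Neuropeptides are made as large precursors, cut by convertases and stored in dense-core vesicles, from which they act on G protein-coupled receptors over slower times than classical transmitters. In cortex, Sst marks inhibitory neurons that derive from the medial ganglionic eminence and express Lhx6, and a rare long-range kind of them carries Nos1, Chodl and high Npy. Vip, and in many cells Cck or Crh, marks interneurons of the caudal ganglionic eminence, which express Adarb2 and Prox1. Pdyn is also made by striatal projection neurons of the direct pathway, the cells that carry the dopamine receptor Drd1, and Cck and Adcyap1 are also made by glutamatergic neurons.

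The promoters of Sst, Vip and Npy are shown because the differences between libraries described at most length below are in these genes. RefSeq entries of the GRCm38.p6 build cover 250 bases before to 50 bases after the start, 5′ to 3′ on the gene's strand, and were found for 7 of the 8 genes (Pdyn and Adcyap1 have a pair of entries each). Capitals mark the cyclic AMP response element (CRE) TGACGTCA, and its first letters TGACG on either strand, which lie inside every full element and so overlap it. Sst lies at chr16:23890795-23891094 on the minus strand, Vip at chr10:5638968-5639267 on the plus strand and Npy at chr6:49822460-49822759 on the plus strand.
Sst: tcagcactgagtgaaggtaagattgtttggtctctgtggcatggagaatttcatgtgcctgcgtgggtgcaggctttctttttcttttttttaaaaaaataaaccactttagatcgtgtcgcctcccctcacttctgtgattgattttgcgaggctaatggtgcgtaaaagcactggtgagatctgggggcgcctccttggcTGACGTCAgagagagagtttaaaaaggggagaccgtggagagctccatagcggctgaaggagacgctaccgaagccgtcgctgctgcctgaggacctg
Vip: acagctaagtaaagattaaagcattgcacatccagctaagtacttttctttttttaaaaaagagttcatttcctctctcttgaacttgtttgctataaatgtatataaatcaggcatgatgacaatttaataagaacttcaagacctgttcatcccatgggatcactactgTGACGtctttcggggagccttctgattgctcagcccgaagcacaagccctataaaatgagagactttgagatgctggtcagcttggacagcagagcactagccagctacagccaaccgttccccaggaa
Npy: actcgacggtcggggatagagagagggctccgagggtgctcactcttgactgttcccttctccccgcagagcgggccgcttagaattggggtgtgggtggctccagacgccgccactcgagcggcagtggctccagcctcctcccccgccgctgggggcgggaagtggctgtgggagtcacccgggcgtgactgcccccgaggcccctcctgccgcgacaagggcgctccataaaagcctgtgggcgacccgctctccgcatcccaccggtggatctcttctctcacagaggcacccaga
The full element was found in Sst alone among the 7 genes, with its first base at -48 from the start. Across all 32851 RefSeq promoters of this length, 1.79% held the full element and 20.8% the first letters. Those letters were also present once in the windows of Vip, Cck, Cort and Adcyap1, at -79, -47, -18 and, for the first Adcyap1 entry, -91, and were in neither the Npy nor the Pdyn windows. A match is a description of letters and was not tied to the levels below.

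The 8 genes are short. In the GENCODE vM21 annotation of the same build they span 1.39 kb (Sst), 6.80 kb (Npy), 8.40 kb (Vip), 5.87 kb (Cck), 13.28 kb (Pdyn), 2.00 kb (Crh), 1.73 kb (Cort) and 7.52 kb (Adcyap1). They lie on chromosomes 16, 6, 10, 9, 2, 3, 4 and 17, respectively, and no other annotated gene overlaps any of them.

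The libraries held 28195551 UMIs (sham control), 23285489 (day 1), 42963698 (day 3) and 25033355 (day 7). A total of 7785 nuclei were kept, namely 2115, 1018, 3081 and 1571, with medians of 6338, 10933, 5401 and 6970 UMIs. Nuclei counts per time point described by the study matched the deposited libraries only with day 3 and day 7 exchanged, so day 3 and day 7 below always mean the libraries labelled so. Of the nuclear barcodes, 9 occurred in more than 1 library. Clusters were made without the 8 genes or any listed gene and named from markers that do not include the 8, so that "Lhx6 interneuron-like" is a marker-based name. These nuclei carried Nxph1 at 2561 CPM, Sox6 at 1050 and Lhx6 at 71.4, against 18.4 of the glutamatergic marker Slc17a7, and Adarb2 interneuron-like nuclei carried Adarb2 at 8042 and Prox1 at 158. The Lhx6 class had 63, 28, 82 and 55 nuclei in sham control, day 1, day 3 and day 7 (2.98%, 2.75%, 2.66% and 3.50% of nuclei), and the Adarb2 class had 43, 29, 57 and 31.

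For 5 of the 8 genes, the leading class stood apart from the next named neuron class by intervals that did not overlap, which held for 15.1% of the 19382 genes with at least 10 UMIs in the 6 classes and 18.4% of those with at least 50. The clusters were formed from 2952 genes that did not include these 8. The 8 genes were chosen with such patterns known, so these shares are a description. UMIs were counted over exons and introns, so that long genes can gather more of them, and levels are compared between classes and libraries and not between genes. Over the 4 libraries, Sst reached 356 CPM in Lhx6 interneuron-like nuclei (887 UMIs) and 42.2 in the next named neuron class, the other subcortical neurons, with the unnamed neuronal cluster 26 between them at 115 (56 UMIs). Npy reached 177 in the same class and 99.3 in Adarb2 interneuron-like nuclei. Vip had the widest gap, with 337 in Adarb2 interneuron-like nuclei (468 UMIs) and 7.27 in the next neuron class, with 23.5 in microglia-like nuclei, where 28 of the 31 UMIs lay in 1 nucleus. Cck stood at 140 (121 to 162) in that class, beside 79.5 in Slc17a6 glutamatergic neuron-like nuclei, while oligodendrocyte-like nuclei held 108 (97.1 to 120.5) and microglia-like nuclei 107 (90.1 to 126, overlapping the leading class), and Crh at 22.3, beside 2.00 in Lhx6 interneuron-like nuclei. The other 3 genes had no single leader. Pdyn was at 14.4 in Lhx6 interneuron-like and 11.8 in striatal projection neuron-like nuclei, Cort at 10.4 in Lhx6 and 4.32 in Adarb2 interneuron-like nuclei, and Adcyap1 at 6.38 in other subcortical and 4.15 in glutamatergic neuron-like nuclei, with overlapping intervals in each pair. These are named classes, and Pdyn was higher in unnamed cluster 9 (23.3 CPM, 63 UMIs) and cluster 13 (16.6 CPM, 23 UMIs).

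**Figure D1:**
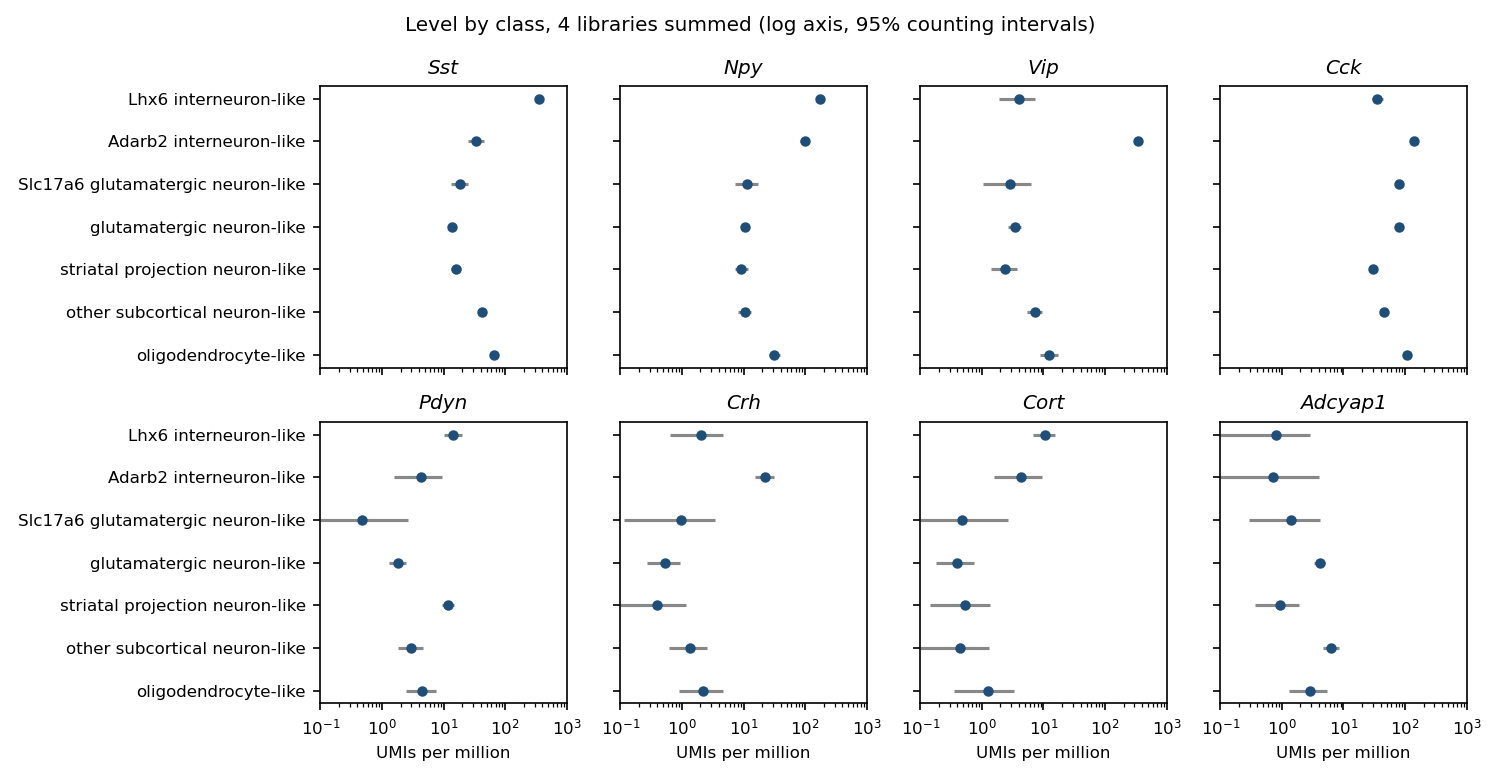
Level of each of the 8 genes in 6 neuron classes and in oligodendrocyte-like nuclei, as CPM on a log axis, with the 4 libraries summed. Points are levels and lines are 95% counting intervals. Sst and Npy were highest in Lhx6 and Vip, Cck and Crh in Adarb2 interneuron-like nuclei, while oligodendrocyte-like nuclei, which should lack these genes, held Sst at 66.9, Vip at 12.4 and Cck at 108, above every named neuron class but the leading one.

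Of the 887 Sst UMIs in the Lhx6 class, 852 lay in cluster 22, 1 of the 2 clusters of the class. This cluster of 93 nuclei had Sst at 1241, 1014, 826 and 708 CPM, whereas cluster 18, which carried the marker of basket cells Pvalb at 70.8, had no nucleus with more than 7 Sst UMIs. Ratios to sham control in cluster 22 were 0.82 (0.66 to 1.01) at day 1, 0.67 (0.56 to 0.79) at day 3 and 0.57 (0.47 to 0.70) at day 7. In the whole class, Sst counted 238, 162, 297 and 190 UMIs, or 394, 368, 388 and 277 CPM. The ratios were 0.94 (0.76 to 1.15) at day 1, 0.99 (0.83 to 1.17) at day 3 and 0.70 (0.58 to 0.86) at day 7, so that in the class as a whole day 7 was the one library below sham control by more than the counting error. Counted per nucleus and not as CPM, the ratios were 1.53 at day 1 and 0.914 at day 7. With the mix of clusters 18 and 22 held as in sham control, a setting chosen after the values were seen, the day 3 ratio was 0.67. Names depended on integration: with the libraries merged and not integrated, the Lhx6 class held 134 of the 135 nuclei of cluster 18 but 3 of the 93 of cluster 22, 81 of which fell in an unnamed cluster, and the Sst ratios were 0.29, 0.43 and 1.28. With that unnamed cluster added to the merged class, a setting added after the values were seen, they were 1.14, 1.43 and 1.24.

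In the Lhx6 class, Npy was higher in all 3 libraries after occlusion, which did not hold over all nuclei (18.4, 18.3, 27.1 and 21.9 CPM). In Lhx6 interneuron-like nuclei it counted 62, 76, 181 and 123 UMIs, or 103, 173, 237 and 180 CPM. The ratios to sham control were 1.69 (1.19 to 2.40), 2.31 (1.72 to 3.13) and 1.75 (1.28 to 2.42), and 1.54 (1.07 to 2.23), 1.58 (1.16 to 2.18) and 1.38 (0.98 to 1.94) within cluster 22. Merged and not integrated libraries gave 0.70 at day 1 and 2.56 at day 7, and nuclei thinned to 1000 UMIs gave 0.98 at day 7. In Adarb2 interneuron-like nuclei, Npy was at 87.3, 53.5, 177 and 84.3 CPM, and the day 3 ratio was 2.03 (1.31 to 3.19). In glutamatergic neuron-like nuclei it was at 12.4, 10.5, 11.1 and 6.76 CPM.

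The Npy UMIs were unevenly spread over nuclei. The highest nucleus of the Lhx6 class held 9, 26, 35 and 35 Npy UMIs. Nuclei with 10 or more numbered 3 at day 1, 6 at day 3 and 5 at day 7, a limit set after the values were seen that lies 1 UMI above the highest sham control nucleus, so that the 0 of sham control is no finding. These are UMIs as counted, and median depth differed between libraries (8542, 14442, 7846 and 9645 UMIs). These 14 nuclei held 71.1%, 64.6% and 65.9% of the class's Npy UMIs after occlusion. All 14 had at least 2 Sst UMIs, 10 had at least 2 UMIs of Nos1, which encodes neuronal nitric oxide synthase, and 9 had a UMI of Chodl.

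Nos1 was used to divide the class, a step added after the values were seen. Nuclei with at least 2 Nos1 UMIs numbered 3, 4, 8 and 3. In them, Npy was at 380 (from 10 UMIs), 1170, 1436 and 1140 CPM, and Sst at 456 (12 UMIs), 2110, 1247 and 1207. In the 60, 24, 74 and 52 nuclei with fewer Nos1 UMIs, Npy was at 90.0, 74.9, 88.2 and 112, and Sst at 391, 197, 282 and 212. The division was chosen from the nuclei with most Npy, and it set aside 10 of 62, 46 of 76, 121 of 181 and 51 of 123 Npy UMIs and 12 of 238, 83 of 162, 105 of 297 and 54 of 190 Sst UMIs. More was taken from the libraries after occlusion than from sham control, so these levels are a description of where the UMIs lay and support no ratio between libraries. Nos1 itself counted 27, 45, 122 and 97 UMIs in the whole class (44.7, 102, 160 and 142 CPM). With 1 library per group, a different level per nucleus and a different choice of nuclei in the pool cannot be told apart.

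**Figure D2:**
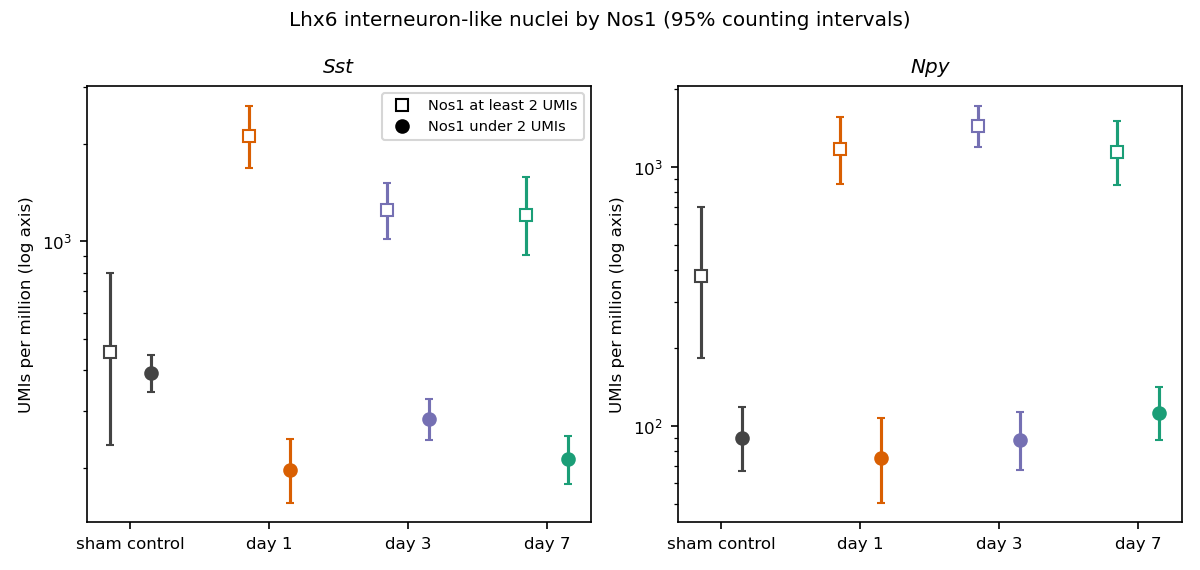
Sst and Npy in Lhx6 interneuron-like nuclei, as CPM on a log axis by library, for nuclei with at least 2 UMIs of Nos1 (open squares) and under 2 (filled circles), with 95% counting intervals. Npy in the filled circles lay between 74.9 and 112, while the open squares lay at 380 in sham control and between 1140 and 1436 after occlusion, from 3 to 8 nuclei each.

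Vip, which acts through Vipr1 and Vipr2, was at 310, 331, 452 and 213 CPM in Adarb2 interneuron-like nuclei, from 117, 142, 161 and 48 UMIs. The ratios were 1.07 (0.83 to 1.38), 1.46 (1.14 to 1.87) and 0.69 (0.48 to 0.97), so that day 3 was above and day 7 below sham control by more than the counting error. Nuclei with 10 or more Vip UMIs numbered 4 of 43, 7 of 29, 7 of 57 and 3 of 31. The single highest nucleus held 28, 52, 32 and 17 UMIs. The intervals of the ratios do not cover which nuclei were drawn. With every nucleus thinned to the same depth, 18.6%, 17.2%, 17.5% and 9.68% of the nuclei held a Vip UMI. The intervals of these shares all overlapped, and the day 3 share was not above that of sham control. Counted per nucleus and not as CPM, the ratios were 1.80, 1.04 and 0.57, with the day 3 ratio near 1 on that scale. Merged libraries had no Adarb2 class, and 124 of its 160 nuclei fell in the unnamed cluster. The merged Lhx6 class gave a day 3 ratio of 15.4 from 1 and 12 UMIs, and with the unnamed cluster added the ratios were 1.77, 1.34 and 0.47. Over all nuclei, Vip stood at 11.4, 17.1, 13.1 and 5.89 CPM, lowest at day 7.

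Cck, whose receptor in cortex is mostly Cckbr, was at 169, 100.1, 180 and 107 CPM in Adarb2 interneuron-like nuclei (64, 43, 64 and 24 UMIs). The day 1 ratio was 0.59 (0.39 to 0.88), the day 3 ratio 1.06 (0.74 to 1.52) and the day 7 ratio 0.63 (0.38 to 1.02), so day 1 alone lay outside the counting error. The day 1 ratio was 0.25 after thinning to 1000 UMIs and 0.996 counted per nucleus. The merged Lhx6 class gave 1.15 at day 1 and 1.23 at day 7, and with the unnamed cluster added 0.99 and 0.66, so the day 1 difference was not found there. The interneuron markers Reln and Ndnf were also lower in the Adarb2 class at day 1, at 0.498 (0.405 to 0.612) and 0.499 (0.278 to 0.875), and the part of this in the Cck result was not tested. Glutamatergic neuron-like nuclei gave far more Cck molecules, 461, 351, 670 and 318 UMIs, at 82.9, 75.3, 84.4 and 67.2 CPM. Their day 7 ratio was 0.81 (0.70 to 0.94).

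Crh was found in few nuclei. It counted 5, 2, 21 and 3 UMIs in Adarb2 interneuron-like nuclei, or 13.2, 4.66, 58.9 and 13.3 CPM, and the day 3 ratio of 4.46 (1.64 to 15.1) rested on 21 UMIs, 9 of them in 1 nucleus. The highest sham control nucleus held 3 of the 5 UMIs there. Without the nucleus with most Crh UMIs in each library the ratio was 6.37. Sham control then held fewer than 3 UMIs, so this value does not strengthen the ratio.

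For Pdyn, Lhx6 interneuron-like nuclei held 4, 0, 12 and 20 UMIs, or 6.62, 0, 15.7 and 29.2 CPM. With 3 counts, taken as the limit of detection, in place of the 0 at day 1, the ratio would be 1.03. The counting interval at day 1 was 0 to 2.08. The day 7 ratio was 4.41 (1.48 to 17.7), but 15 of the 20 UMIs lay in 1 nucleus, and without the nucleus with most UMIs in each library it was 2.20. Sham control lost 2 of its 4 UMIs in that step, so the 2.20 rests on few UMIs. With the leading class taken from sham control and day 1 alone, which is then the striatal class, the day 7 ratio was 1.24. Striatal projection neuron-like nuclei had Pdyn at 10.8, 11.5, 11.9 and 13.4 CPM. Among these, nuclei with Drd1 and without Drd2 had 24.6 CPM (59 UMIs in 215 nuclei), and nuclei with Drd2 and without Drd1 had 0.931 (3 UMIs in 314). The Drd1 nuclei were at 28.3, 23.2, 20.8 and 27.5 in the 4 libraries, with intervals that all overlapped.

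Cort, a relative of somatostatin, counted 9, 5, 6 and 6 UMIs in Lhx6 interneuron-like nuclei, or 14.9, 11.4, 7.85 and 8.76 CPM. Its ratios were 0.76, 0.53 and 0.59, and every interval included 1. Adcyap1 counted 10, 13, 12 and 8 UMIs in other subcortical neuron-like nuclei, or 5.36, 8.59, 6.04 and 5.82 CPM, with ratios of 1.6, 1.13 and 1.09 that also included 1. Neither gene differed between libraries by more than the counting error, and intervals this wide do not show that their levels were alike.

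These differences were read against all genes of the same classes with at least 10 UMIs in the pair of sums. In Lhx6 interneuron-like nuclei, a ratio of at least 2 or at most 0.5 was reached by 11.9% of 9664 genes at day 1, where 0 of the 4 peptide genes tested reached it. At day 3 the share was 9.94%, and 2 of 5 peptide genes (Npy and Pdyn) reached it, both upward. Pdyn held 4 and 12 UMIs there, a ratio of 2.37 (0.72 to 10.1). It reached 10 UMIs only through the higher library, and with 4 and 0 UMIs at day 1 it was not tested. At day 7 the share was 11.1%, and 1 of 5 (Pdyn) reached it. In Adarb2 interneuron-like nuclei, the share was 12.8% at day 1, with 0 of 4 peptide genes. At day 3 it was 12.4%, with 3 of 5 (Sst, Npy and Crh, upward). Crh, at 5 and 21 UMIs, likewise passed only through the higher library and was not tested at day 1 or day 7. Sst counted 7 and 14 UMIs, of which free RNA, as estimated below, would give 5.60 and 7.52. In neither library did a nucleus hold more than 2 Sst UMIs. At day 7 it was 14.7%, with 1 of 4, which was Sst from 16 UMIs in 1 nucleus of a total of 18. Counts so small are a description of the genes and were given no test. The genes that reached 10 UMIs differed between days, so the counts were not compared between days.

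Sst and Npy were the pair most often found in the same nuclei. Of the 388 interneuron-like nuclei of both classes, 84 had at least 2 Sst UMIs, 82 at least 2 Npy UMIs and 42 both. Within cluster 22, 41 of the 43 Npy nuclei also had Sst. Vip was seen in 39 nuclei and Cck in 46, with 14 shared, and 5 of the 7 Crh nuclei also had Vip. Sst and Vip shared 1 nucleus.

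Receptors of these peptides were spread over several classes. Crhbp, which binds and sequesters Crh, led in Lhx6 interneuron-like nuclei with 54.5 CPM, and Npy1r in Adarb2 interneuron-like nuclei with 23.8. Vipr1 (42.1) and Cckbr (22.8) led in glutamatergic neuron-like nuclei, Vipr2 (67.6) in Slc17a6 glutamatergic neuron-like nuclei, Oprk1 (31.5), the receptor of dynorphin, in striatal projection neuron-like nuclei and Adcyap1r1 (84.1), the PACAP receptor, in astrocyte-like nuclei. Of the 17 receptor and binding genes, 3 were tested in the Lhx6 class at each day, and none reached a 2-fold ratio. Crhbp was the highest of them at each day (1.94, 1.54 and 1.6) and Cckbr the lowest (0.96, 0.55 and 0.62). In the Adarb2 class 4, 4 and 6 were tested, with 0 past 2-fold at day 1, 2 lower at day 3, the lower of them Crhbp (9 UMIs in sham control and 1 at day 3, ratio 0.12), and 1 in each direction at day 7, Npy2r at 2.01 and Npy5r at 0.42.

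Among the 14 genes of peptide processing and dense-core vesicles, all tested in both classes, none in the Lhx6 class reached 2-fold at day 1 or day 7, and 1, Cadps2, was at 0.37 (0.19 to 0.69) at day 3. Pam, which amidates peptides, was at 1.49 (1.32 to 1.68) there. In the Adarb2 class, Scg3 was at 0.38 (0.17 to 0.77) at day 1, Pcsk1, a convertase, at 0.27 (0.05 to 0.98) and Scg3 at 0.34 (0.14 to 0.74) at day 3, and Cadps2, which primes dense-core vesicles, at 3.35 (2.34 to 4.87) at day 7. The medians of the list were 1.07, 1.06 and 0.92 in the Lhx6 class and 1.01, 1.07 and 1.04 in the Adarb2 class. Of the 23 other neuropeptide precursors, 3 to 4 were tested in the Lhx6 class with none past 2-fold. In the Adarb2 class 5 to 6 were, with Pnoc, which encodes nociceptin, at 2.36 (1.03 to 5.88) at day 3 and Pthlh at 0.27 (0.03 to 1.33), and Tac1 at 0.44 at day 3 (12 and 5 UMIs) and 0.42 at day 7. Of 20 interneuron markers, 13, 14 and 12 were tested in the Lhx6 class, with 1, 2 and 1 at least 2-fold higher and 1, 0 and 0 lower, and 16, 16 and 14 in the Adarb2 class, with 1, 2 and 0 higher and 3, 3 and 1 lower. In the Lhx6 class these were Nos1 at 2.29, 3.57 and 3.17, Chodl at day 3 (0 and 13 UMIs), and Adarb2, at 0.12 at day 1. In the Adarb2 class, the higher ones were Nos1 at day 1 (1 and 9 UMIs) and day 3 (10.6) and Cxcl14 at day 3, at 2.48 (1.32 to 4.88). The lower ones were Reln, Ndnf and Satb1 (11 and 0 UMIs) at day 1, Sox6 at 0.342 (0.231 to 0.496), Satb1 (11 and 1 UMIs) and Tac1 at day 3, and Tac1 at day 7.

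Of 9 activity genes, few had enough UMIs. In the Lhx6 class 2 were tested at day 7 and both were at most 0.5, Junb at 0.06 and Egr1 at 0.18. At day 3 Junb was at 0.23, and at day 1 Dusp1 was at 2.41 (0.61 to 11.2). In the Adarb2 class 2 were tested at day 1 and none later, with 0 past 2-fold. Markers of other cells did not move together in the Lhx6 class. At day 1 the endothelial marker Flt1 counted 0 UMIs in sham control and 26, the astrocyte marker Slc1a3 was at 2.61 (1.16 to 6.29) and the oligodendrocyte marker Mbp at 0.56, at day 3 Mog was at 3.36 and Mbp at 1.69, and at day 7 Mbp was at 0.48 and Mog at 1.32. In the Adarb2 class Mbp was at 0.25 at day 7. Of the 12 glial and vascular markers, 7 were tested at each day in the Lhx6 class, with 2, 1 and 0 at least 2-fold higher and 1, 0 and 1 lower, and 7, 7 and 6 in the Adarb2 class, with 0 higher and 2, 0 and 2 lower. The part of such RNA in the results above was not tested.

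Genes with the pattern most like each peptide were ranked by Pearson's r of log2(CPM + 10) over 59 points, the neuronal clusters of each library with at least 20 nuclei (18 clusters). The points share libraries and depth, so r is a description. Levels were over 10 CPM at 59 points for Cck, 49 for Sst, 31 for Npy and 14 for Pdyn. They were so at only 8 points for Vip, 4 for Crh and 3 for Adcyap1, so few points set r for these genes. Vip was most like Egfr (0.95), Egfros (0.95) and Frem1 (0.90), Sst like Pcdh18 (0.85), Adamts12 (0.84) and Arhgap28 (0.84), and Npy like Crhbp (0.84) and Moxd1 (0.81). Crh was like Has2os (0.82), Egfros (0.78) and Egfr (0.76). The gene most like Cck was Car4 (0.73), that most like Pdyn was Sytl5 (0.70) and that most like Adcyap1 was Boc (0.69).

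Most molecules of these genes were not in nuclei. Barcodes of 1000 UMIs or fewer, taken as free RNA, held between 72.8% (Crh, day 3) and 94.9% (Cort, day 1) of each gene's UMIs, against 38.9% to 45.1% of all UMIs of a library. Cck in free RNA was at 775, 868, 741 and 752 CPM in sham control, day 1, day 3 and day 7, against 62.1, 63.4, 78.7 and 52.8 in nuclei. Sst in free RNA was at 425, 563, 355 and 412, and Npy at 247, 291, 211 and 241. Vip was at 63.6, 88.9, 60.0 and 62.2, Pdyn at 33.4, 32.8, 30.5 and 32.2.

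All 8 genes were at least 2-fold higher in free RNA than in nuclei in sham control, day 1 and day 3, and so were the 7 with at least 100 UMIs at day 7. The shares of all genes so placed were 26.2%, 27.9%, 24.3% and 26.5%. The ratio of free to nuclear level ran from 3.37 (Crh, day 3) to 24.8 (Cort, day 1), with medians over the peptide genes of 9.65, 10.7, 6.02 and 11. Genes spanning up to 10 kb were at least 2-fold higher in free RNA in 66.2%, 70.6%, 61.3% and 67.5% of cases, and genes over 100 kb in 0.707% to 1.07%. The peptide genes are of such short spans but for Pdyn, and the part of length in these ratios was not tested.

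**Figure D3:**
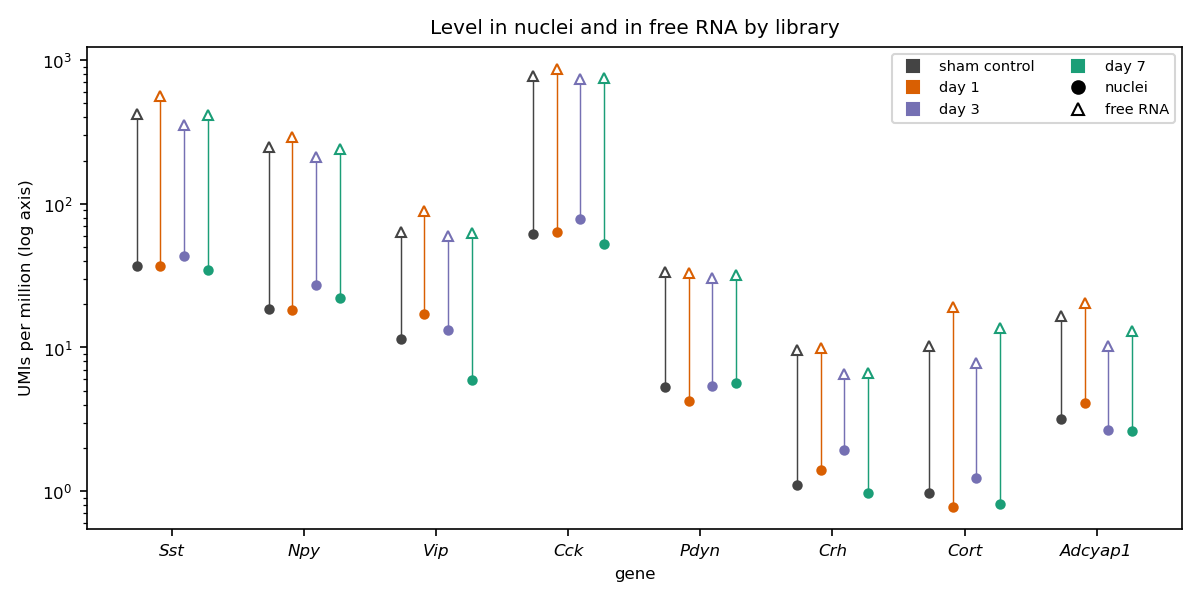
Level of each gene in nuclei (filled circles) and in free RNA (open triangles) in each library, as CPM on a log axis, joined by a line. Free RNA was higher for every gene in every library, by 3.37-fold to 24.8-fold.

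Counts in the classes were also set beside an estimate of free RNA. The estimate gives every nucleus of a library the same free UMIs, which was not tested. It can exceed the count, as for Sst in oligodendrocyte precursor-like nuclei (34.9 against 29 UMIs). Taking the median of 307, 433, 371 and 322 UMIs of barcodes with over 100 and up to 1000 UMIs as free UMIs in each nucleus, free RNA would give 282 of the 312 Sst UMIs counted in glutamatergic neuron-like nuclei, 108 of 122 in striatal projection neuron-like nuclei and 172 of 210 in oligodendrocyte-like nuclei. In the Lhx6 class it would give 33.1 of 887, in the Adarb2 class 3.85 of 468 Vip UMIs and in glutamatergic neuron-like nuclei 523 of 1800 Cck UMIs and 9.39 of 95 Adcyap1 UMIs. Other subcortical neuron-like nuclei counted 284 Sst UMIs against an estimate of 117, and Adarb2 interneuron-like nuclei 47 against 24.3. The share of nuclei with a Sst UMI, each nucleus thinned to 1000 UMIs, was 15.9%, 25.0%, 23.2% and 16.4% in the Lhx6 class (38.1%, 50%, 51.2% and 52.7% without thinning, at median depths of 8542, 14442, 7846 and 9645 UMIs), against 6.85%, 8.75%, 8.03% and 4.33% in oligodendrocyte-like nuclei (median depths of 2023, 3088, 1867 and 2381). The intervals of these thinned Sst shares overlapped in sham control (7.88% to 27.3% against 4.34% to 10.2%) and day 1 (10.7% to 44.9% against 4.87% to 14.2%). They did not overlap at day 3 or day 7. For Cck, the thinned share in Adarb2 interneuron-like nuclei was 16.3%, 6.90%, 19.3% and 9.68%, and in oligodendrocyte-like nuclei 12.8%, 11.9%, 12.8% and 8.27%. These Cck shares had intervals that overlapped those of oligodendrocyte-like nuclei (at day 1, 2 of 29 nuclei, 0.846% to 22.8%, against 7.30% to 17.9%). Without thinning, the free RNA estimate was 44.3 of the 195 Cck UMIs in the Adarb2 class (10.9 of 43 at day 1), against 318 of 340 in oligodendrocyte-like nuclei.

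In free RNA, 0 of the 8 genes reached a 2-fold ratio to sham control at any day, where 7.92%, 7.18% and 7.55% of all genes did. Day 1 was the highest of the 4 libraries for 7 genes, among them Sst (ratio 1.33, 1.28 to 1.38), Npy (1.18, 1.12 to 1.24), Vip (1.40, 1.26 to 1.55), Cck (1.12, 1.09 to 1.15) and Cort (1.87, 1.47 to 2.38), while the intervals of Adcyap1 (1.23, 0.998 to 1.51) and Crh (1.04, 0.778 to 1.38) included 1. At day 3 the same ratios were 0.84, 0.85, 0.94, 0.96 and 0.76, with Adcyap1 at 0.62 (0.502 to 0.758) and Crh at 0.68 (0.521 to 0.890), whereas Npy in Lhx6 and Vip and Crh in Adarb2 interneuron-like nuclei were above sham control at that day.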

How the data were processed

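The authors aligned the reads to GRCm38 (mm10) with STAR 2.7.3a and counted UMIs per gene over exons and introns on GENCODE vM8, and deposited raw counts for every possible barcode. Whether counting used strand is not given in the sources used here. Each library pooled 3 hemispheres. The 8 genes and all lists were chosen with earlier results of these data known.

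Nuclei were called by a re-implementation of the emptyDrops method (barcodes of 1000 UMIs or fewer as free RNA, false discovery rate 0.001, 10000 iterations), and 145 of 7930 barcodes were removed as doublets by Scrublet. Seurat 5.3.0 in R 4.3.3 (sctransform 0.4.2) integrated the libraries on 30 components at resolution 0.8, from 2952 of 3000 variable genes, with all listed genes left out. Clusters were named from at least 3 detected markers. UMIs were summed over nuclei of a class and divided by all UMIs of the class (CPM). Intervals are exact Poisson, or exact conditional binomial for ratios, at 95%, and cover counting error only. A gene was tested for a 2-fold ratio where the pair of sums held at least 10 UMIs (100 for free RNA against nuclei). Shares were thinned to 1000 UMIs per nucleus. The interval code was tested on simulated data. No p-value was computed, since each group is 1 library. Genes named are the 8 genes, list members with the highest or lowest ratio, and for each gene the 3 genes most like it among those with at least 100 UMIs. Some of these are not reported here. Nos1, Chodl, Drd1 and Drd2 divisions were made after the values were seen. Alternatives covered clustering, doublets, depth, free RNA, single nuclei and count minimums.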

Additional observations from a re-analysis of the deposited data

Results flagged for a closer look

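Sst at day 7 had ratios on opposite sides of 1 in the interneuron classes, which rested on 1 nucleus. Its ratio to sham control was 4.31 in Adarb2 interneuron-like nuclei, from 7 and 18 UMIs with 16 of the 18 in 1 nucleus and 2 in the others, fewer than the 7 of sham control, and 0.70 in Lhx6 interneuron-like nuclei. Npy at day 7 likewise had a ratio of 1.75 in Lhx6 interneuron-like and 0.54 in glutamatergic neuron-like nuclei, where it counted 69 and 32 UMIs and 19 of the 69 lay in 1 nucleus. The free RNA estimate there was 37.3 of the 69 and 29.4 of the 32. Each group is 1 library, so the differences between the classes were not tested.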

How the results depend on the processing

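The 23 ratios to sham control in the leading classes moved by less than their counting interval under clustering resolution 1.6, with doublets kept, in nuclei with more than 2000 UMIs, after either removal of free RNA, and without the nucleus with most UMIs. The cause of the changes below was not tested.

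With the libraries merged and not integrated, Sst was at 0.292, 0.428 and 1.28 at day 1, day 3 and day 7, and Npy at 0.70 at day 1 and 2.56 at day 7. That clustering named no Adarb2 class, so taking its named interneurons together gave the merged Lhx6 class again, with the same Sst and Npy values, Vip at 15.4 at day 3 (1 and 12 UMIs), and Cck at 1.15 at day 1 and 1.23 at day 7. Adding its unnamed cluster of interneurons gave a set that mixes nuclei of the Lhx6 and Adarb2 classes. There Sst was at 1.43 at day 3 and 1.24 at day 7, Vip at 1.77 at day 1 and 0.467 at day 7, and Cck at 0.985 at day 1. These settings and the next 3 were chosen after seeing the data. With clusters 18 and 22 weighted as in sham control, day 3 was 0.669 for Sst and 1.65 for Npy. In nuclei with under 2 Nos1 UMIs, Sst was at 0.505, 0.722 and 0.543, and Npy at 0.833, 0.980 and 1.25 (each interval included 1), values that support no comparison between libraries, since the division took more Sst and Npy UMIs from those after occlusion. With the leading class from sham control and day 1, Pdyn at day 7 was at 1.24. Thinned to 1000 UMIs, Sst at day 7 was at 0.501, Npy at day 7 at 0.982 and Cck at day 1 at 0.247. Per nucleus, Sst was at 1.53 (day 1) and 0.914 (day 7), Npy at 2.76 (day 1), Vip at 1.80 (day 1) and 1.04 (day 3), and Cck at 0.996 (day 1).

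Levels over all barcodes, in place of nuclei, were 203 (Sst), 116 (Npy), 35.3 (Vip), 374 (Cck), 16.8 (Pdyn), 4.17 (Crh), 5.62 (Cort) and 7.80 (Adcyap1) CPM, and Cck in every barcode over 1000 UMIs was at 73.7. In barcodes of 100 UMIs or fewer, free RNA held 739 (Sst), 375 (Npy), 59.4 (Vip), 963 (Cck), 24.9 (Pdyn) and 25.7 (Cort), and in barcodes over 100 and up to 1000 UMIs 368 (Sst), 218 (Npy), 743 (Cck) and 9.41 (Cort). Without thinning, the shares of nuclei of the leading class with a UMI were 47.8% (Sst), 37.3% (Npy), 28.8% (Vip), 36.9% (Cck), 7.02% (Pdyn), 8.75% (Crh), 8.77% (Cort) and 4.04% (Adcyap1). Thinned to 2000 UMIs, they were 30.3% (Sst) and 19.7% (Npy). Thinned to 1000 UMIs and with at least 2 UMIs, they were 9.65% (Sst), 4.39% (Npy), 3.75% (Cck), 0.625% (Crh), 0% (Cort) and 0% (Adcyap1).

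Genes past 2-fold numbered 219, 193 and 243 (Lhx6 class; day 1, day 3, day 7) and 215, 163 and 179 (Adarb2 class) with at least 30 UMIs, and 6225, 5731 and 6063, and 6190, 5931 and 6283, with at least 1 UMI, against 1153, 1028 and 1128, and 1143, 1063 and 1152, with 10. Ratios were not computed where a sum was 0 or no class was named: the Adarb2 class in merged libraries (all Vip, Cck and Crh ratios), Vip at day 1 and day 7 and all Crh ratios in the merged Lhx6 class, Pdyn at day 3 in both, and, thinned, Pdyn at day 3, all Crh and Cort ratios, and Adcyap1 at day 1 and day 7. No paired analysis was possible because each group is 1 library. Depth limits Crh, Cort, Pdyn and Adcyap1, at 63 to 333 UMIs in all nuclei.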

Other observations

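A single microglia-like nucleus of the library labelled day 1 held 28 Vip UMIs among 10700 UMIs, together with 145 UMIs of Adarb2, 2 of Cx3cr1 and 0 of Csf1r and Gad2. It was singled out after its values were seen.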
